A study of Sus scrofa with 6 samples.

Results

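The forkhead (FOX), SOX and T-box genes, 3 families of developmental transcription factors, were described across whole pig embryos. Members were taken by the wording of the protein match deposited for each transcript: a row counted when it named a forkhead box protein, a SOX transcription factor, a T-box protein or brachyury, and did not name a homeobox. The rule found 64 of 20523 transcript rows. One of them matched only through the "CCAAT-box" in the description of a nuclear factor 1 protein, with 3 to 10 reads per library, and was left out. The other 63 rows stood for 52 genes: 35 rows of 29 forkhead genes, 17 rows of 13 SOX genes and 11 rows of 10 T-box genes. The same wording left out family members whose deposited match was worded otherwise, and brachyury (TBXT), EOMES, SOX9, SOX18, FOXA2, FOXC1, FOXD3, FOXF1 and FOXO1 were not analysed here.

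The study asked how embryos homozygous for 2 quantitative trait nucleotides (QTNs) of VRTN differ in gene expression from wild-type embryos. VRTN encodes vertnin, a protein tied to vertebra number in pigs. All 6 embryos were Large White, 17.5 to 18.0 days post coitum, and were sequenced whole: 3 were wild type (qq, here WT) and 3 carried the QTNs on both chromosomes (QQ). The labels gave no sex, litter or dam, so the p-values measure only the spread between these embryos.

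Forkhead proteins bind DNA through a winged-helix domain, and some of them, such as the FOXA group, can open closed chromatin, while the FOXO group is held out of the nucleus by insulin signalling. SOX proteins bend DNA through a high-mobility-group domain and usually act with a partner factor: SOXB1 members maintain neural progenitors, SOXD members assist SOX9 in cartilage, SOXF members act in vessels and endoderm, and SOXC members act in progenitors of nerve and mesenchyme. T-box proteins share the DNA-binding domain first described in brachyury, which drives mesoderm and notochord formation, and other T-box genes pattern the heart, limbs and somites.

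The libraries held between 12.2 and 13.5 times 1000000 uniquely mapped reads. WT replicate 3 stood apart, at -61.7 on the first principal component (57.7% of the variance), where the next lowest library, WT replicate 1, lay at -9.12. VRTN had at most 2 reads in any library, so the labels could not be checked through it. Tissue markers of the trunk were measured in every library, with TCF15 at 11.0 to 16.9 RPKM (reads per kilobase of transcript per 1000000 mapped reads) and MEOX1 at 18.6 to 26.4 RPKM in somites, and TNNT2 at 220 to 379 RPKM in heart muscle. Erythroid markers differed between embryos. The 13 with a row summed to 7680, 2150 and 2980 RPKM in WT and 2930, 290 and 3200 RPKM in QQ (replicates 1, 2 and 3). WT replicate 1 was highest and QQ replicate 2 lowest, and the sums of the other libraries overlapped between genotypes. Of the 13 markers, 12 were tested, and all 12 had lower fitted values in QQ, where 49.7% of all tested rows had higher ones. At an unadjusted edgeR p under 0.05, 3 of the 12 were lower (25.0%), beside 9.30% of all tested rows. Markers of liver and yolk sac (12 with a row, 10 tested) summed to 233 to 824 RPKM in WT and 158 to 1140 RPKM in QQ. Those of trophoblast (10 with a row, 8 tested) summed to 64.2 to 82.5 RPKM in WT and 73.4 to 132 RPKM in QQ. The 132 RPKM were those of QQ replicate 1, where IFNG alone held 71.6 RPKM, against 2.90 and 0.0679 RPKM in QQ replicates 2 and 3. CDX2, which also stands in the brachyury list below, gave 20.9 to 33.8 RPKM of each sum. No marker with a row was at 0 in every library, and the part of these tissues in the values below was not tested. In whole embryos, fewer cells of a type and less RNA per cell cannot be told apart.

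Of the 63 rows, 40 had enough reads to be tested (34 genes: 21 forkhead, 13 SOX and 6 T-box rows), among 13957 tested rows in all. No member passed edgeR's quasi-likelihood test at an adjusted p under 0.05, where 0% of all tested rows passed in either direction; the smallest adjusted p of a member was 0.233. At an unadjusted edgeR p under 0.05 there were 7 members with higher values in QQ embryos and 0 with lower values, or 17.5% and 0%, beside 11.0% and 9.30% of all tested rows. The 7 were FOXO3, FOXN2, FOXK1, SOX4, SOX11, a 511 bp row of SOX6 and TBX20. DESeq2 called 0 members, with a background of 0.861% higher and 0.0524% lower. The limma fit that gives each library its own weight called 5 members higher (TBX20, SOX4, SOX11, FOXC2 and a short SOX6 row) and 0 lower, against a background of 7.73% higher and 1.74% lower.

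The fitted differences lay mostly on one side. Higher fitted values in QQ were found for 31 of 40 members (77.5%), against 49.7% of all tested rows, and the members' median log2 fold change was 0.26, against -0.00 over all rows. By family, 16 of 21 forkhead rows, 9 of 13 SOX rows and all 6 T-box rows had higher fitted values, with medians of 0.27, 0.20 and 0.23, although the T-box count was 3 of 6 after quantile normalization and 4 of 6 without WT replicate 3. With 1 row per gene, 25 of 34 genes had higher values. In the deposited RPKM, every QQ library lay above every WT library for 15 of the 40 tested members and below for 0. Of all tested rows, 18.8% lay above and 9.07% below. Among rows with too few reads to test, the 3396 bp FOXM1 row lay below. The summed RPKM of forkhead rows was 158 to 191 in WT and 198 to 228 in QQ libraries, and that of SOX rows 168 to 205 and 232 to 236. TMM scaling corrects each library by a single factor for its composition, and leaves differences that vary from row to row. After it, 12 tested members lay above (5 forkhead, 6 SOX and 1 T-box rows) and 0 below. The background was 15.3% above and 14.4% below.

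**Figure D1:**
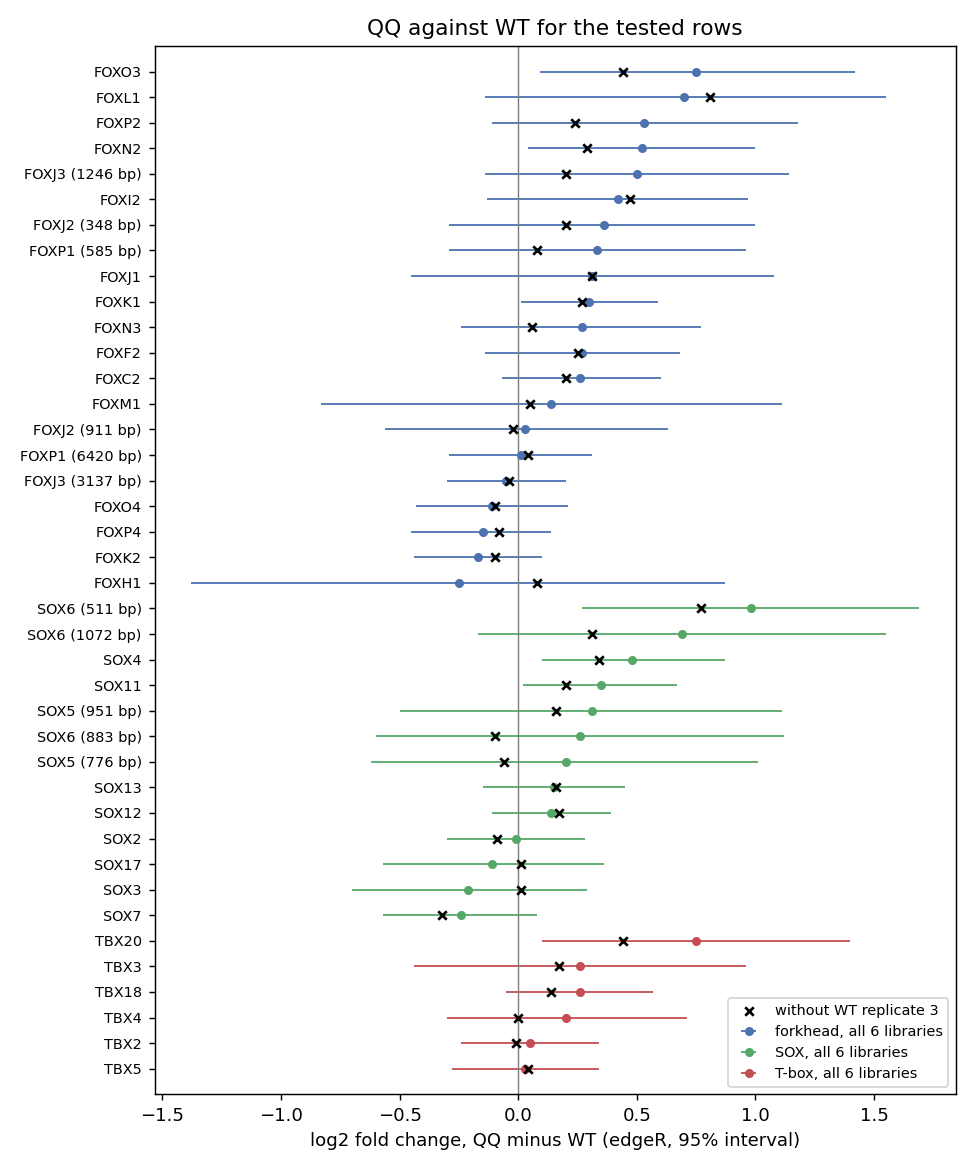
Fitted log2 fold change of QQ over WT embryos (x axis; points, with 95% confidence intervals as bars) for each of the 40 tested member rows (y axis), by family. Points lie between -0.25 and 0.98, 31 of them right of 0, and most intervals cross 0.

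WT replicate 3 was the lowest of the 6 libraries in RPKM for 24 of 40 members (60%), where it was lowest in 41.4% of all tested rows. On the TMM scale the median deviation of the members from their own mean was -0.03, 0.05 and -0.19 for WT and 0.10, 0.02 and 0.16 for QQ (log2, replicates 1, 2 and 3). In WT replicate 3 that median was -0.15 for forkhead, -0.41 for SOX and -0.32 for T-box rows. Without this library, 29 of 40 members still had higher fitted values, the median log2 fold change was 0.15, and 5 members were higher and 1 lower at an unadjusted edgeR p under 0.05 (background 8.55% and 5.15%). The lower member was SOX7. Without QQ replicate 3 the median was 0.13, and 2 members were higher and 0 lower at that p (background 5.02% and 2.70%). Without WT replicate 1 there were 4 higher and 0 lower (background 9.89% and 8.33%), and without QQ replicate 1 also 4 and 0 (background 10.3% and 10.4%). Without WT replicate 2 there were 9 higher and 0 lower of 41 members, beside 2093 and 1562 of 14237 tested rows. Without QQ replicate 2 there were 5 and 0 of 41, beside 788 and 432 of 14174.

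**Figure D2:**
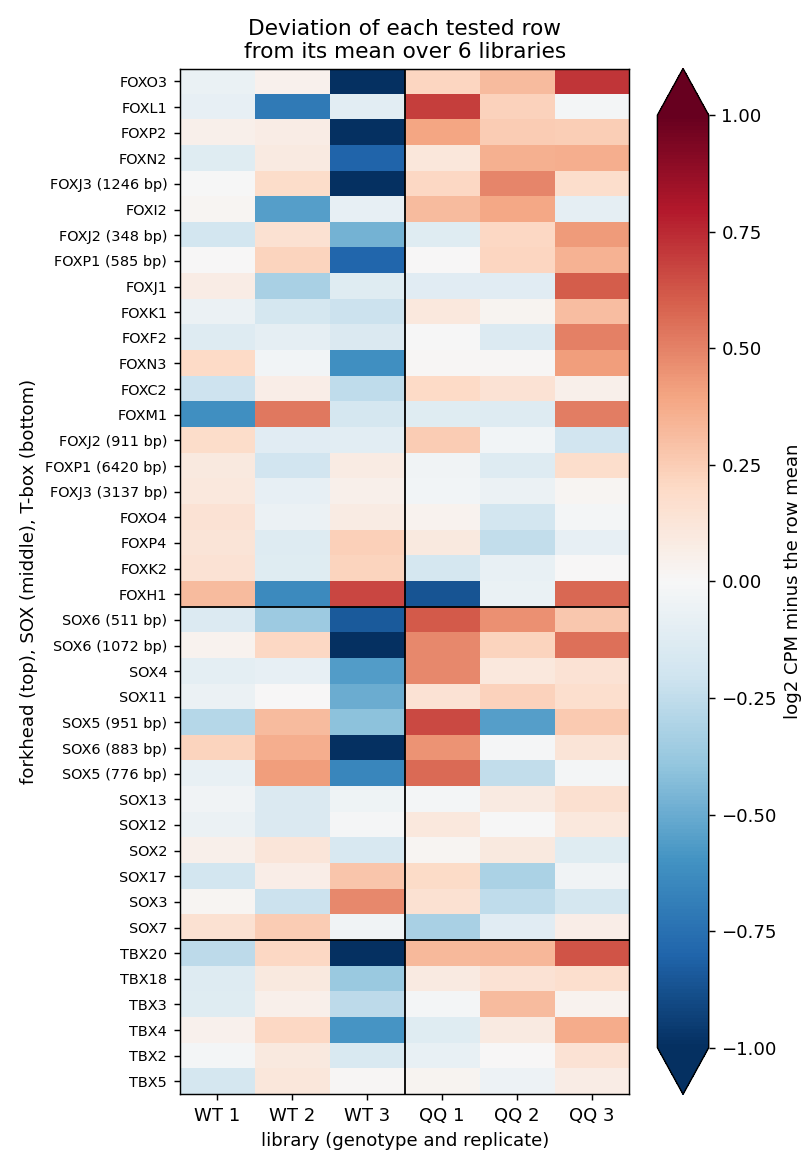
Deviation of each tested member row from its mean over the 6 libraries (colour, log2 counts per 1000000 reads after TMM scaling), with libraries as columns and the 40 rows grouped by family. The column of WT replicate 3 holds the lowest values for many SOX and T-box rows, and its median is -0.19.

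SOX12, SOX11 and SOX4, the SOXC genes, were among the 4 SOX rows with the highest RPKM, and every QQ embryo lay above every WT embryo in each of them. Values are given in the order of replicates 1, 2 and 3. SOX12 stood at 53.7, 50.4 and 52.4 RPKM in WT and at 60.3, 60.1 and 64.0 RPKM in QQ embryos. The groups were apart, also after TMM scaling, and the log2 fold change was 0.14 ± 0.11 (SE, edgeR adjusted p = 0.466). SOX11, a gene of immature neurons and mesenchyme, had 39.9, 41.6 and 27.8 RPKM in WT and 45.9, 52.5 and 49.7 RPKM in QQ libraries. Every QQ value lay above every WT value, and the lowest was WT replicate 3. Its log2 fold change was 0.35 ± 0.14 (edgeR adjusted p = 0.234) and 0.20 without that library. SOX4, which is active in progenitors of nerve, heart and blood, had 24.1, 24.3 and 16.5 RPKM in WT and 36.1, 29.9 and 30.4 RPKM in QQ libraries. The groups were apart here too, with WT replicate 3 lowest and QQ replicate 1 highest. Its log2 fold change was 0.48 ± 0.17 (95% interval 0.10 to 0.87, edgeR adjusted p = 0.233) and 0.34 without WT replicate 3.

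**Figure D3:**
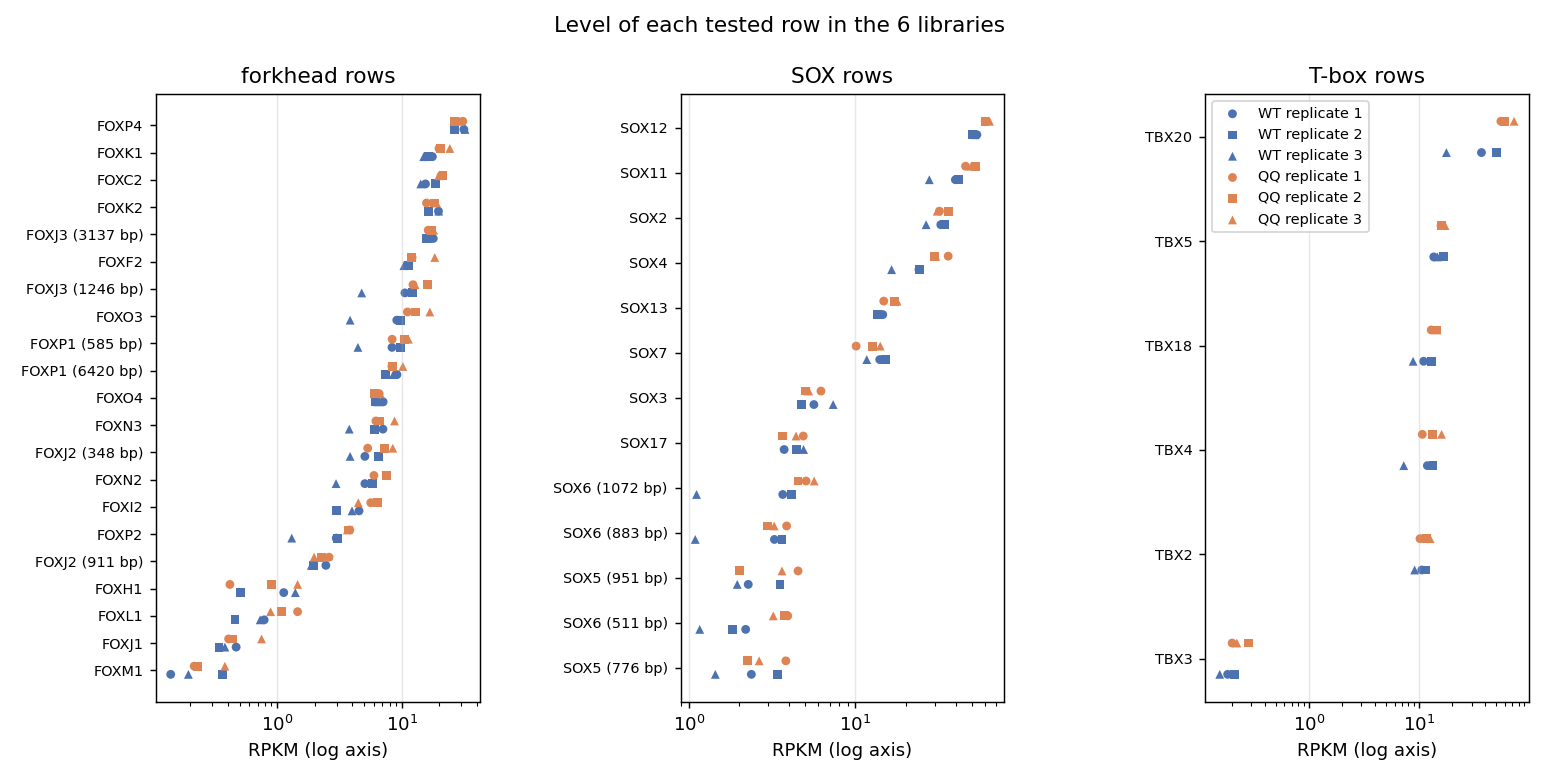
RPKM (x axis, log scale) of each of the 40 tested member rows (y axis), in 1 panel per family; colour gives the genotype and the marker shape the replicate. SOX4, SOX11, SOX12 and TBX20 show QQ points above all WT points, while SOX2, TBX5 and FOXP4 overlap.

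The SOXD genes SOX5, SOX6 and SOX13 had 6 tested rows, all with higher fitted values in QQ and a median log2 fold change of 0.29. The SOX5 rows of 951 and 776 bp stood at 0.31 ± 0.36 and 0.20 ± 0.36, and at -0.00 and -0.10 without QQ replicate 1. SOX6, a partner of SOX9 in cartilage that also acts in muscle and red blood cells, was split over 3 rows. Its 1072 bp row had 3.66, 4.14 and 1.11 RPKM in WT and 5.05, 4.52 and 5.65 RPKM in QQ, for 0.69 ± 0.38 (edgeR adjusted p = 0.309). Its 511 bp row rested on 14, 12 and 8 WT reads and 27, 24 and 20 QQ reads, for 0.98 ± 0.32 (edgeR adjusted p = 0.233). Both rows had separate groups with the lowest value in WT replicate 3, and without that library they stood at 0.31 and 0.77. The 883 bp row did not separate: its log2 fold change was 0.26 ± 0.38 and changed sign, to -0.10, without WT replicate 3. The differences in SOX6 thus rested in part on 1 library, and the rows of 1 gene gave unequal values. The erythroid markers were lowest in QQ replicate 2 (290 RPKM in sum), where the 1072 bp SOX6 row stood at 4.52 RPKM. That was its lowest QQ value, yet above all its WT values. Erythroid markers were highest in WT replicate 1 (7680 RPKM in sum), where this row stood at 3.66 RPKM. The 511 bp row had its lowest QQ value in replicate 3 (3.21 RPKM), not in replicate 2 (3.73 RPKM). A link between SOX6 and the erythroid markers was not tested. SOX13 had separate groups in RPKM, with means of 14.0 ± 0.564 and 16.6 ± 1.58 (SD, n = 3 each), and a log2 fold change of 0.15 ± 0.13.

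The 4 tested SOXB and SOXF rows had fitted values below 0, a sign that SOX2, SOX3 and SOX17 did not keep in every setting. SOX2, a factor of the neural tube, had 32.6, 34.3 and 26.6 RPKM in WT and 32.0, 36.3 and 31.0 RPKM in QQ libraries. The groups overlapped, and the log2 fold change of -0.01 ± 0.13 (95% interval -0.30 to 0.28, edgeR adjusted p = 0.975) took either sign across alternatives, from -0.09 to 0.09. SOX3, its close relative, had means of 5.91 ± 1.32 and 5.48 ± 0.637 RPKM in WT and QQ (SD, n = 3 each). SOX7, a vessel gene, had 14.0, 15.1 and 11.7 RPKM in WT and 10.1, 12.6 and 14.1 RPKM in QQ. These groups overlapped, with the lowest value in QQ replicate 1, and the log2 fold change was -0.24 ± 0.14 (edgeR adjusted p = 0.334; -0.15 without QQ replicate 1). SOX17, which acts in endoderm and arteries, had 3.73, 4.44 and 4.88 RPKM in WT and 4.86, 3.66 and 4.40 RPKM in QQ. The ranges nearly coincided, and -0.11 ± 0.21 (edgeR adjusted p = 0.771) became 0.01 without WT replicate 3. SOX10, a neural crest gene, was below the filter, and its row with more reads held 5, 4 and 7 WT reads and 5, 3 and 7 QQ reads. For SOX10 the two-sided exact permutation p on the log2(RPKM + 0.5) scale was 0.9, and no p below 0.1 is possible with 3 libraries in each group.

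Among the T-box genes TBX20 had the highest level and the largest spread. TBX20, a regulator of heart muscle that also acts in hindbrain motor neurons, had 36.8, 50.6 and 17.7 RPKM in WT and 55.2, 59.9 and 72.7 RPKM in QQ libraries. Every QQ value lay above every WT value, with WT replicate 3 far below the other WT libraries. The means were 35.1 ± 16.5 and 62.6 ± 9.04 RPKM (SD, n = 3 each), and the log2 fold change was 0.75 ± 0.29 (95% interval 0.10 to 1.40, edgeR adjusted p = 0.233). Without WT replicate 3 it was 0.44. The other heart factor of high level, TBX5, which marks the forelimb and the atria, had 13.6, 16.6 and 14.7 RPKM in WT and 15.8, 16.1 and 17.2 RPKM in QQ libraries. Its groups overlapped, and the log2 fold change of 0.03 ± 0.14 (95% interval -0.28 to 0.34) was -0.03 after quantile normalization.

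TBX18, a gene of the sinus venosus, epicardium and the anterior part of each somite, had 11.0, 12.9 and 8.83 RPKM in WT and 12.9, 14.4 and 14.5 RPKM in QQ libraries. The lowest value was again WT replicate 3, WT replicate 2 met the QQ range, and the log2 fold change was 0.26 ± 0.14 (edgeR adjusted p = 0.302; 0.14 without WT replicate 3). TBX4, the hindlimb counterpart of TBX5, had 11.9, 13.4 and 7.27 RPKM in WT and 10.7, 13.3 and 16.0 RPKM in QQ. Its groups overlapped, and a log2 fold change of 0.20 ± 0.22 (edgeR adjusted p = 0.598) came to -0.0014 without WT replicate 3. TBX2, a repressor in the atrioventricular canal, had means of 10.4 ± 1.17 and 11.5 ± 1.22 RPKM in WT and QQ (SD, n = 3 each), and its log2 fold change of 0.05 ± 0.13 ranged from -0.05 to 0.15 over the alternatives. TBX3, its relative in the limb and conduction system, had on its tested row 11, 13 and 10 WT reads and 13, 17 and 13 QQ reads (0.26 ± 0.31, and -0.00070 after quantile normalization). Summed over rows, the T-box level was 58.0 to 106 RPKM in WT and 105 to 134 RPKM in QQ libraries, so the sums overlapped.

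The forkhead genes with the smallest unadjusted p were FOXO3, FOXN2 and FOXK1. FOXO3, a factor that switches on stress resistance and cell cycle exit when insulin signalling is low, had 9.12, 9.82 and 3.85 RPKM in WT and 11.1, 12.8 and 16.8 RPKM in QQ libraries. The groups were apart and WT replicate 3 lay far below the other WT libraries. The log2 fold change of FOXO3 was 0.75 ± 0.30 (95% interval 0.09 to 1.42, edgeR adjusted p = 0.233), and 0.44 without that library. FOXO4, of the same group, had 6.54 ± 0.499 and 6.46 ± 0.334 RPKM (SD, n = 3 each), with a log2 fold change of -0.11 ± 0.14. FOXN2, a broadly expressed member of little known function, had 5.06, 5.83 and 2.97 RPKM in WT and 5.98, 7.60 and 7.56 RPKM in QQ. FOXK1, a factor of muscle progenitors and of glucose metabolism, had 17.6, 16.3 and 15.0 RPKM in WT and 19.9, 20.3 and 24.3 RPKM in QQ. In both genes every QQ library lay above every WT library. Their log2 fold changes were 0.52 ± 0.21 and 0.30 ± 0.13 (edgeR adjusted p = 0.234 and 0.238), and the FOXN2 value was 0.29 without WT replicate 3. FOXK2, the relative of FOXK1, stood at -0.17 ± 0.12; the difference between them was not tested.

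FOXC2, which with FOXC1 is needed in presomitic mesoderm, vessels and kidney, was the mesodermal forkhead gene with the highest level. It had 15.5, 18.7 and 14.2 RPKM in WT and 20.7, 21.4 and 19.8 RPKM in QQ libraries. The groups were apart in RPKM but overlapped after TMM scaling, and the log2 fold change was 0.26 ± 0.15 (edgeR adjusted p = 0.32). FOXF2, a gene of the gut wall and craniofacial mesenchyme, had means of 11.0 ± 0.527 and 14.2 ± 3.67 RPKM (SD, n = 3 each), with QQ replicate 3 highest at 18.4 RPKM. Its log2 fold change of 0.27 ± 0.18 was 0.05 without that library. FOXL1, of the mesenchyme under the gut epithelium, rested on 10, 6 and 10 WT reads and 20, 14 and 11 QQ reads. Its groups were apart by 1 read, and the log2 fold change was 0.70 ± 0.38 (edgeR adjusted p = 0.299; 0.45 without QQ replicate 1). The 3 tested mesodermal forkhead rows all had separate groups in RPKM, and 1 of them did after TMM scaling. None of the 3 passed the threshold of edgeR, and DESeq2 called 0 of them. FOXC2 was called by limma with array weights, which was fitted to RPKM without TMM scaling.

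FOXP4, a factor of lung, gut and heart, had the highest level of any forkhead row, with 31.5, 26.3 and 32.2 RPKM in WT and 30.9, 26.3 and 29.0 RPKM in QQ libraries. These groups overlapped almost fully, and the log2 fold change was -0.15 ± 0.13 (95% interval -0.45 to 0.14, edgeR adjusted p = 0.493; -0.25 to -0.076 with 1 library left out). FOXP2, known for its part in brain and lung, was at a lower level, with 2.98, 3.03 and 1.31 RPKM in WT and 3.83, 3.72 and 3.66 RPKM in QQ (0.53 ± 0.29, and 0.24 without WT replicate 3). FOXH1, the partner of SMAD proteins in Nodal signalling, rested on 15, 7 and 20 WT reads and 6, 12 and 19 QQ reads. It had the lowest log2 fold change among forkhead rows, -0.25 ± 0.50 (edgeR adjusted p = 0.777), which turned to 0.083 without WT replicate 3. FOXJ1, the master regulator of motile cilia and expressed at the embryonic node, had 12 to 16 reads in WT and 15 to 25 reads in QQ libraries.

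Rows of the same gene could give unequal values, and for FOXP1 and FOXJ3 they parted in WT replicate 3. FOXP1 had a 585 bp row with 8.35, 9.72 and 4.45 RPKM in WT and 8.37, 10.5 and 11.3 RPKM in QQ, and a 6420 bp row with 9.14, 7.45 and 8.54 RPKM in WT and no less than 8.34 RPKM in QQ. The long row of FOXP1 divided by its short row gave 1.09, 0.766 and 1.92 in WT and 0.997, 0.806 and 0.903 in QQ libraries. For FOXJ3, with rows of 3137 and 1246 bp, the same ratio was 1.69, 1.30 and 3.42 in WT and 1.33, 1.07 and 1.40 in QQ. In both genes the short row was low in WT replicate 3 and the long row was not. The fitted log2 fold changes followed: 0.33 for the short and 0.01 for the long FOXP1 row, and 0.50 and -0.05 for the FOXJ3 rows. Without WT replicate 3 the short rows stood at 0.08 for FOXP1 and 0.20 for FOXJ3. The other 3 genes with several tested rows did not show this: the ratio in WT replicate 3 lay within the range of the other libraries for FOXJ2 (0.488) and SOX5 (1.36), and below it for SOX6 (0.953).

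For some members a smaller share of the transcript was covered by reads in WT replicate 3. For the 1072 bp SOX6 row 41.3% of bases were covered there, against up to 94.8% elsewhere, and for FOXO3 82.1% against up to 96.2%. Both rows also held fewer reads there, 16 against 49 to 74 elsewhere for SOX6 and 128 against 282 to 507 for FOXO3. Which property of WT replicate 3 these values follow was not tested.

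**Figure D4:**
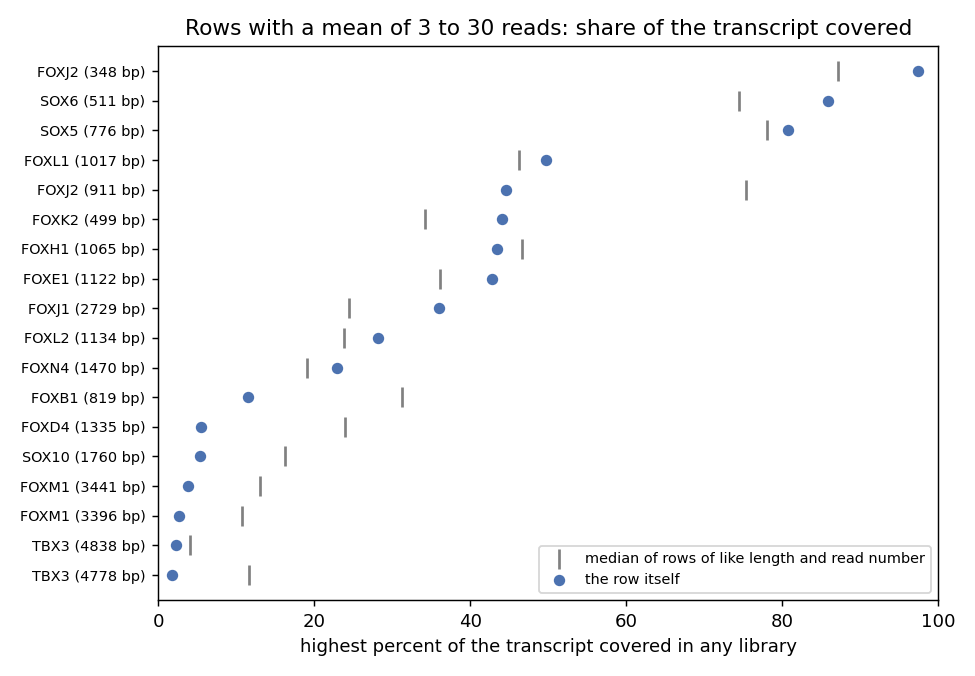
Largest share of a transcript covered by reads in any library (x axis, percent; points) for member rows with a mean of 3 to 30 reads (y axis), beside the median over all rows of like length and read number (bars). The 4778 bp TBX3 row, both FOXM1 rows and the SOX10 and FOXD4 rows lie far below their like rows, and FOXJ1 lies above.

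Several poorly expressed members had reads on a small part of the transcript. FOXM1, a driver of mitotic gene expression, held 6, 16 and 9 WT reads and 10, 10 and 16 QQ reads on its 3441 bp row, and 10, 9 and 15 WT reads and 8, 8 and 3 QQ reads on a 3396 bp row. At most 3.84% of the longer row (132 bases) was covered in any library, where rows of like length and read number reached a median of 13.0%. TBX3 had at most 1.74% of 4778 bp covered (83 bases, like rows 11.6%), SOX10 5.40% of 1760 bp (95 bases, like rows 16.2%) and FOXD4 5.54% of 1335 bp (74 bases, like rows 23.9%). By contrast, FOXJ1 was covered over 36.0% of 2729 bp, above the 24.5% of its like rows. FOXM1, TBX3 and SOX10 each had a second row of nearly the same length, and only uniquely mapped reads were counted, per the file headers. Whether reads common to both rows were left out was not tested, so the levels of FOXM1, TBX3 and SOX10 are uncertain.

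Another 23 rows were below the filter, and 18 genes had no tested row: FOXB1, FOXB2, FOXD4, FOXE1, FOXE3, FOXI1, FOXL2, FOXN4, FOXP3, FOXQ1, FOXR1, SOX10, SOX14, SOX30, TBR1, TBX15, TBX19 and TBX21. Of the 23 rows, 12 had at most 3 reads in every library and the highest count was 15 reads. They include genes of tissues that form later or hold few cells, such as FOXP3 of regulatory T cells (0 or 1 read), TBX21 of T helper cells (0 to 2 reads) and TBR1 of the cerebral cortex (0 to 2 reads). The floor of 3 reads lay at 0.222 to 0.246 counts per 1000000 reads, and no difference between genotypes was detectable for such rows at this depth.

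Genes that work with the 3 families or are their known targets were taken from lists of textbook partners, and 0 genes of any list passed edgeR's threshold of 0.05 on the adjusted p. Lists are described by counts at an unadjusted edgeR p under 0.05, beside the 11.0% higher and 9.30% lower of all rows, and by medians beside -0.00. Of 15 tested heart partners and targets of T-box genes, 12 had higher fitted values and 2 were higher and 1 lower at that p, with a median of 0.17. GJA5, a gap junction gene of atrium and arteries that TBX5 activates, was the lower one (36.5 ± 0.669 RPKM in WT and 32.7 ± 1.31 in QQ, SD, n = 3 each; -0.25 ± 0.10), and TBX20 itself was among the higher ones. Of 13 endothelial targets of SOXF and FOXC genes, 11 had higher fitted values and 2 were higher at that p, with a median of 0.23 that ran from 0.08 to 0.25 with 1 library left out. These were EFNB2, an arterial ephrin, at 24.5 ± 8.89 and 42.5 ± 3.82 RPKM (0.71 ± 0.23, and 0.45 without WT replicate 3), and PROX1, a lymphatic regulator, at 0.88 ± 0.34 (0.53 without it).

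Of 18 FOXM1 targets, 14 had lower fitted values, 6 of them at an unadjusted edgeR p under 0.05, and 4 had higher values, 3 of them at that p, for a median of -0.16. CDC20, an activator of the anaphase-promoting complex, had 23.2, 18.5 and 23.7 RPKM in WT and 17.4, 17.7 and 17.5 RPKM in QQ libraries (-0.41 ± 0.13, edgeR adjusted p = 0.233). CCNF, a cyclin of G2 phase, had 48.0, 41.6 and 51.9 RPKM in WT and 39.0, 39.7 and 38.6 RPKM in QQ (-0.37 ± 0.12, edgeR adjusted p = 0.233). Both had separate groups, and stood at -0.32 and -0.27 without WT replicate 3. In the other direction CENPF, a kinetochore protein, had 75.2, 74.2 and 37.9 RPKM in WT and 86.5, 115 and 99.9 RPKM in QQ (0.60 ± 0.22, and 0.35 without WT replicate 3; chosen after its values were seen). The list held both directions, and FOXM1 itself could not be read well, as its reads covered so little of its rows.

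The remaining lists had 0 to 2 genes past that unadjusted p in either direction. Of 16 partners and targets of brachyury in the tail bud, 1 was higher and 2 lower, with a median of 0.08: SP8, a tail bud and limb factor, stood at 0.64 ± 0.22 and NOTO, a notochord homeobox gene, at -0.87 ± 0.36. Of 9 cartilage targets of SOX9, SOX5 and SOX6, 0 were past it, with a median of 0.13 that was -0.02 after quantile normalization; COL11A1 stood at 0.24 ± 0.17 (0.072 without WT replicate 3) and COL9A2 at -0.21 ± 0.14. Of 13 neural progenitor partners of SOXB1, 0 were past it, with a median of 0.02, POU3F1 at 0.62 ± 0.34 (0.40 without QQ replicate 3) and DBX1 at 0.76 ± 0.61 (0.25 without WT replicate 2, 1.3 without WT replicate 3). The neural crest list had 1 of 8 higher (ZEB2, 0.51 ± 0.22, and 0.26 without WT replicate 3, with TWIST1 at -0.21 ± 0.11) and a median of 0.20. The FOXA list of node, notochord and endoderm had 1 of 10 higher and a median of 0.16, with CDH1 at 0.52 ± 0.20 (0.30 without QQ replicate 3) and HNF4A at 0.55 ± 0.53. HNF4A rested on QQ replicate 3, without which it stood at -0.43. In the paraxial mesoderm list, 1 of 7 was higher (SIX4, 0.83 ± 0.36, and 0.45 without WT replicate 3), with a median of 0.00. The FOXO targets had 1 of 14 higher and a median of 0.20, with SESN3 at 0.72 ± 0.30 (0.42 without WT replicate 3) and TXNIP at 0.44 ± 0.20 (0.28 without WT replicate 2). Of 8 shared cofactors, 2 were higher, EP300 (0.99 ± 0.36) and SIRT1 (0.68 ± 0.29, and 0.37 without WT replicate 3), with a median of 0.11. With 1 library left out, the medians ran from -0.09 to 0.26 for the brachyury list, 0.03 to 0.30 for FOXO targets, -0.01 to 0.24 for the FOXA list and -0.21 to -0.13 for FOXM1 targets. TWIST1, PAX1 and ZIC1 each stand in more than 1 of these lists, so the lists are not independent.

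**Figure D5:**
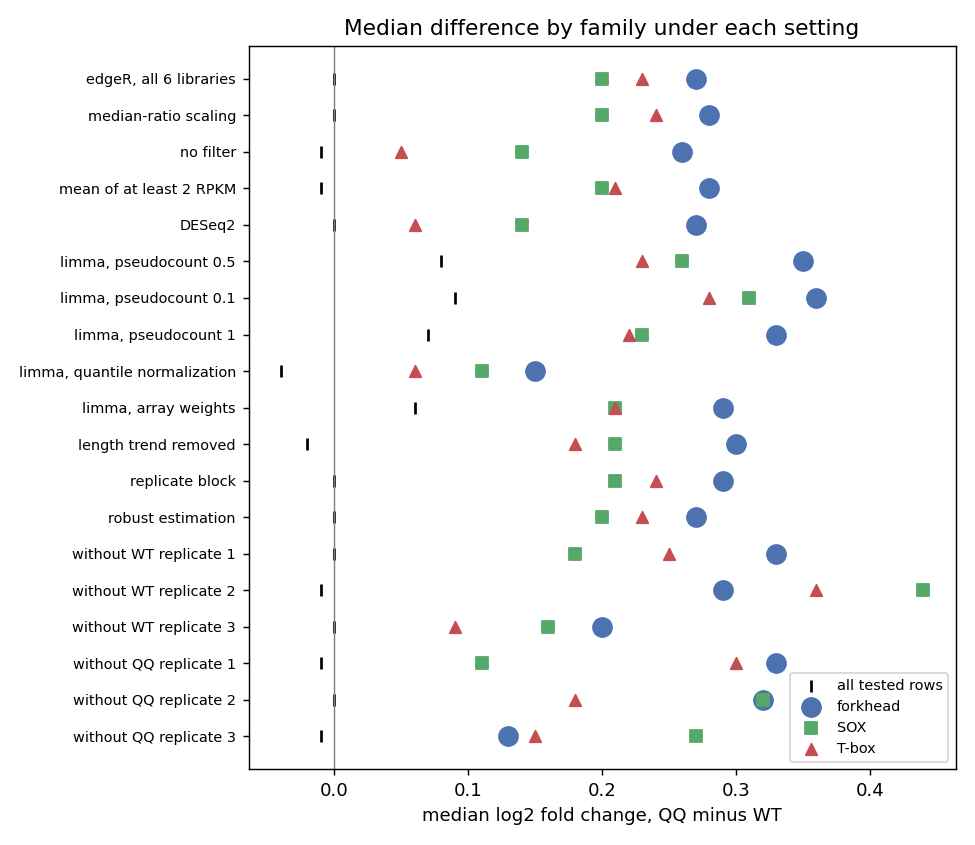
Median log2 fold change of QQ over WT among tested rows (x axis) for forkhead, SOX and T-box members and for all tested rows, in each alternative setting (y axis). All member medians lie above 0, the lowest at 0.05 for T-box rows with no filter, and the SOX median is highest without WT replicate 2, at 0.44.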

How the data were processed

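Total RNA of 3 WT and 3 QQ embryos was made into TruSeq libraries and read on a HiSeq 2000 instrument, per the labels. Reads were placed on Sscrofa 10.2, per the submitters' processing notes; which aligner and counter were used, and whether strand was, is not given in the sources used here. Per the file headers, the deposited table holds for each transcript the count of uniquely mapped reads, the percent of its length covered and its RPKM; a dash was read as 0. The deposited counts add up to the header totals in 6 of 6 libraries, and the deposited RPKM follows from count, length and total to within a relative 1.29e-07. The authors' percent values served only to describe coverage. Every pair of libraries differed by more than sampling noise (chi-square per degree of freedom at least 7.54).

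Counts of all rows were tested with edgeR 4.0.16 in R 4.3.3 (quasi-likelihood, TMM factors of 0.933 to 1.06, default filter with minimum count 10 and total 15), with Benjamini-Hochberg adjustment over 13957 rows and a threshold of 0.05. Alternatives used DESeq2 1.42.0 and limma 3.58.1 on log2(RPKM + 0.5). Log2 fold changes are QQ over WT with the SE from the fit, and RPKM means carry the SD. The 95% intervals come from the edgeR fit and include the spread between embryos; the floor of 3 reads covers counting error only. The fitting code was tested on simulated data. Figures were drawn with matplotlib 3.10.9.

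Symbols came from the deposited protein descriptions of the members; 40 of 41 member rows with a symbol in the gene tables of Sscrofa 11.1 carried the same one, and partner genes were named through those tables. Genome positions and sequences were not used here. Members named by rule were those of a list of well-known factors, the 4 smallest unadjusted p and the 3 highest mean RPKM of each family, and the extremes of fold change. SOX3, SOX5, SOX13, TBX2, FOXO4, FOXK2, FOXF2, FOXP1, FOXP2, FOXJ1, FOXJ2 and FOXJ3 were described outside these rules. Partner lists give their 2 smallest p. Where a listed gene had several rows, the row with the most reads was used. The members, lists and rules were chosen with earlier results of these data known, so they are no independent evidence of a direction.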

Additional observations from a re-analysis of the deposited data

How the results depend on the processing

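The main limits are 3 embryos a group, 1 WT library apart from the rest, and few reads on short or poorly covered rows. Leaving out each library in turn left 0 members past the threshold and gave 29 to 32 higher members of 40 or 41 tested (forkhead 14 to 16, SOX 7 to 10, T-box 4 to 6), with medians of 0.13 to 0.31 for all members, 0.13 to 0.33 for forkhead, 0.11 to 0.44 for SOX and 0.09 to 0.36 for T-box rows. Deviations of same-numbered embryos correlated at -0.19, 0.21 and -0.06 over rows, and those of differently numbered embryos at -0.17 to 0.22. With 3 embryos a group, these values cannot show whether the numbers pair anything. With the replicate number as a block, 0 members passed, 31 were higher and the median was 0.26. Array weights called 5 members (1 forkhead, 3 SOX, 1 T-box) and 12 of 128 partner genes (8.59% higher and 0.781% lower, beside 7.73% and 1.74% of all rows). The median of all members was 0.14 with no filter (37 of 63 rows higher), 0.15 with DESeq2 and 0.13 after quantile normalization (26 of 40 higher, 65.0%). That of forkhead rows was 0.15 after quantile normalization, and that of T-box rows 0.05, 0.06 and 0.06 in the 3 settings, with 3 T-box rows higher after quantile normalization. Limma on RPKM without TMM moved the median of all rows by 0.07 to 0.09 and put 60.5% of them higher.

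Of 41 rows named by rule and with a fit, 8 changed sign in some setting. Outside that rule, SOX3, TBX2, the 883 bp SOX6 row and the long FOXP1 and FOXJ3 rows also took either sign. So did the 776 bp SOX5 row (-0.10 to 0.52) and the 911 bp FOXJ2 row (-0.11 to 0.14). The 951 bp SOX5 row came to -0.00 without QQ replicate 1. The cause was not tested. SOX2 was above 0 with median-ratio scaling (0.00012), a mean of at least 2 RPKM (0.00036), limma with pseudocounts of 0.5, 0.1 and 1 (0.089, 0.090 and 0.088), quantile normalization (0.0088), array weights (0.025) and the length trend removed (0.027), and ran from -0.09 to 0.053 over the left-out libraries. SOX17 was 0.11 with array weights and -0.24 to 0.015 over left-out libraries. After quantile normalization FOXM1 was -0.029, TBX5 -0.028 and TBX3 -0.0007. Over left-out libraries FOXM1 ran from -0.14 to 0.59, TBX5 from -0.045 to 0.096, TBX4 from -0.0014 to 0.37, FOXH1 from -0.73 to 0.083 and HNF4A from -0.43 to 0.89. The cartilage list's median was -0.03 with no filter and -0.02 with both DESeq2 and quantile normalization.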
